A study of Mus musculus with 9 samples.

Results

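miR-192, miR-194 and miR-215 are 3 microRNAs (miRNAs, short RNAs that repress messenger RNAs) best known from the epithelia of the gut, the liver and the kidney, and they were followed here in mouse milk fat. Their mature 5p strands mmu-miR-192-5p, mmu-miR-194-5p and mmu-miR-215-5p, written below without the species prefix, were taken by name from a table of known miRNA counts. They are 3 of the 1915 mature names in that table and fill 4 of its 2059 rows, because miR-194-5p is listed under a pair of hairpins. All 3 passed the filter on low counts, as did 312 of the 828 names that were detected at all. Small RNA was sequenced from the milk of 9 ICR (CD1) dams, an outbred stock, each nursing a first litter. The 4 high-fat dams ate diet D12492, with 60% of its energy as fat, 7% as sucrose and 5.24 kcal per g. The 5 control dams ate diet D12450J, with 10% of its energy as fat, 7% as sucrose and 3.85 kcal per g. In both groups feeding began at 4 weeks of age, 4 weeks before mating, and lasted to the milking on lactation day 10, and the fat layer was washed and spun a second time to leave cells behind before RNA was extracted. Every library is from another dam; cages held pairs of dams on the same diet until mating, and the cage mates are unknown here.

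A miRNA is cut from a hairpin in a longer primary transcript, and hairpins that lie close together can be cut from the same transcript. The mature strand finds its targets chiefly through its seed, bases 2 to 8 counted from the 5′ end. miR-192, miR-194 and miR-215 are transcribed in gut and liver epithelium under hepatocyte nuclear factors, and p53 is known to raise them in human cells, where miR-192 and miR-215 slow the cell cycle. In mammary epithelium they are not among the characteristic miRNAs.

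The sequences place the 3 miRNAs in 2 groups by seed and in 2 other groups by genome position. Below, the seed is in capitals.
miR-192-5p: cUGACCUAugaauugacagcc
miR-215-5p: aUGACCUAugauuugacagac
miR-194-5p: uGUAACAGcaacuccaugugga
miR-192-5p and miR-215-5p share the seed UGACCUA and differ at 3 of 21 bases. Counted from the 5′ end with the base of miR-192-5p first, the differences are C1A, A12U and C20A. miR-194-5p has a seed of its own, GUAACAG. Among the 1623 names of the table with a RefSeq sequence, miR-192-5p and miR-215-5p were the 2 names with the first seed, and miR-194-5p was the 1 name with the second.

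By position they group another way. On GRCm38, the hairpins Mir194-2 (chr19:6264643-6264728) and Mir192 (chr19:6264844-6264932) lie on the plus strand of chromosome 19 with 115 bases between them, outside any annotated protein-coding gene, the nearest being Atg2a at 2308 bases from Mir194-2. Mir194-1 (chr1:185313319-185313385) and Mir215 (chr1:185313581-185313692) lie on the plus strand of chromosome 1 with 195 bases between them, inside an intron of Iars2, a gene of the opposite strand that encodes the mitochondrial isoleucyl-tRNA synthetase. In the non-coding RNA 2010103J01Rik, which runs on the same strand as the hairpins, Mir194-1 is intronic and Mir215 overlaps an exon. miR-192-5p can therefore come from chromosome 19 and miR-215-5p from chromosome 1, while miR-194-5p can come from both.

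The hairpins of miR-194 are shown next, with both mature arms in capitals, because they bear on how far the counts of miR-194-5p can be given to a locus.
Mir194-2: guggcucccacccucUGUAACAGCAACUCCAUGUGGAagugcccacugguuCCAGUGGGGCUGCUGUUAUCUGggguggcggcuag
Mir194-1: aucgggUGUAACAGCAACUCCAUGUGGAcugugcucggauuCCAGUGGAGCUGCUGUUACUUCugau
The 5p arm is identical in both over its 22 bases, and the base on either side of it already differs. The 3p arms differ at 4 of 22 bases, namely G8A, U19C, C20U and G22C with the base of miR-194-2-3p first, so a 3p read names its hairpin. With seeds in capitals they read as follows.
miR-194-2-3p: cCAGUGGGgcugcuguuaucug
miR-194-1-3p: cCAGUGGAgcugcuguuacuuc

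All 3 miRNAs were present in every library, and none was among the leading milk miRNAs. Among all names of a library, miR-192-5p ranked 81 to 98 in high-fat milk and 69 to 95 in control milk, miR-194-5p 71 to 90 in high-fat milk and 63 to 84 in control milk, and miR-215-5p 146 to 276 in high-fat milk and 237.5 to 324.5 in control milk, tied names sharing their mean rank. The libraries held between 837817 and 3897109 counts of mature miRNAs, and levels are given on the counts-per-million scale (CPM) of that total. Summed, the 3 miRNAs made up 0.0994% ± 0.0255 of the counts in high-fat milk (SD, n = 4) and 0.130% ± 0.0391 in control milk (SD, n = 5). Per library the sum was 0.0854%, 0.0764%, 0.134% and 0.101% in high-fat libraries 1 to 4, against 0.0883%, 0.154%, 0.125%, 0.0985% and 0.183% in control libraries 1 to 5. The highest sums stood in control libraries 5 and 2, which were also the shallowest, and the lowest in high-fat library 2, the deepest, and the part of depth in this was not tested.

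miR-192-5p, the chromosome 19 member with the UGACCUA seed, had 384, 324, 501 and 401 CPM in high-fat libraries 1 to 4, against 372, 659, 588, 403 and 828 CPM in control libraries 1 to 5. All 4 high-fat libraries lay below the control median of 588 CPM, but only high-fat library 2 lay below every control library, so the groups overlapped. The counts behind these levels ran from 626 to 1617 per library, which gave 95% Wilson intervals such as 307 to 343 CPM for high-fat library 2 and 769 to 892 CPM for control library 5. These intervals cover counting error only, and they are narrow beside the spread between dams.

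miR-194-5p, the member encoded at both loci, had 445, 434, 755 and 596 CPM in high-fat libraries 1 to 4, against 499, 880, 655, 567 and 994 CPM in control libraries 1 to 5. High-fat libraries 1 and 2 lay below every control library, while high-fat library 3 was exceeded only by control libraries 2 and 5. Its counts ran from 833 to 1802 per library.

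miR-215-5p, the chromosome 1 member with the UGACCUA seed, was much rarer, with 57, 24, 178 and 30 counts in high-fat libraries 1 to 4 and 20, 6, 28, 24 and 4 counts in control libraries 1 to 5. Scaled to the total, these are 24.4, 6.16, 88.0 and 15.7 CPM in high-fat libraries, against 11.9, 4.82, 10.2, 15.004 and 4.77 CPM in control libraries. High-fat libraries 3, 1 and 4 were above every control library, and high-fat library 2 was below 3 of the 5. High-fat library 4 exceeded control library 4 by less than counting error, since its interval of 11.03 to 22.5 CPM overlaps that of 10.1 to 22.3 CPM. High-fat library 3 stood apart from every other library with an interval of 76.0 to 102 CPM.

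**Figure D1:**
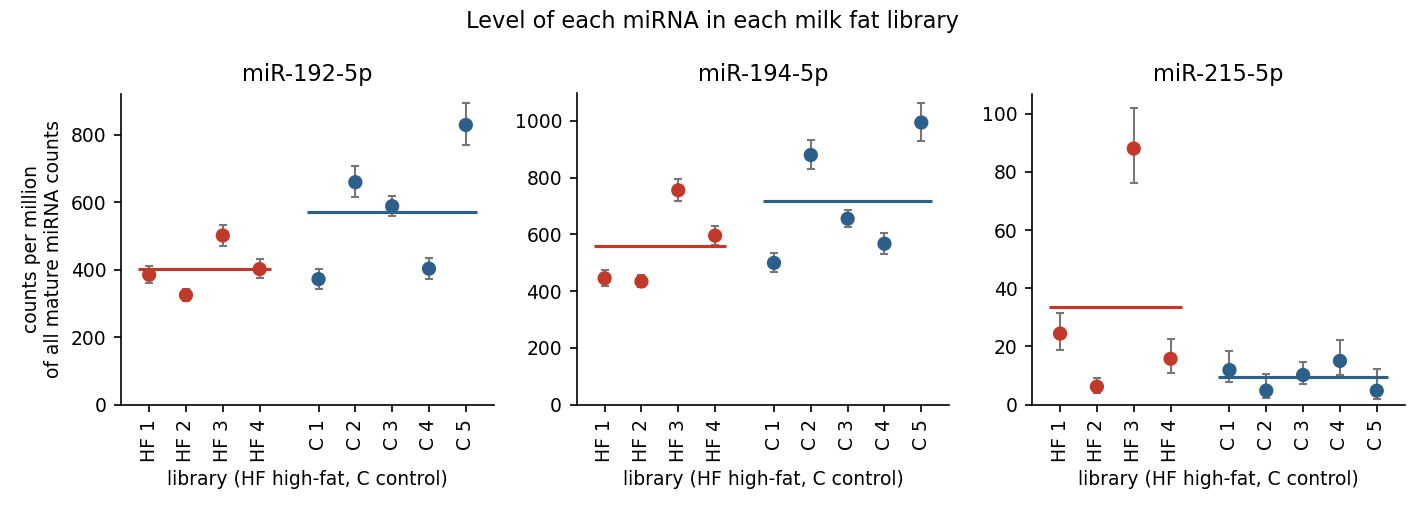
Level of miR-192-5p, miR-194-5p and miR-215-5p in each library, on the counts-per-million scale of all mature miRNA counts, with linear axes that start at 0. Points are single dams (HF high-fat, left; C control, right), bars their 95% Wilson intervals for counting error and horizontal lines the means of each diet; the diets overlap for all 3 miRNAs, and high-fat library 3 stands alone at 88.0 CPM of miR-215-5p.

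In every library miR-194-5p had the most counts, miR-192-5p fewer and miR-215-5p the fewest. miR-194-5p exceeded miR-192-5p by between 1.11 and 1.51 times, in 9 of 9 libraries. The log2 ratio of miR-194-5p to miR-192-5p was 0.21, 0.42, 0.59 and 0.57 in high-fat libraries 1 to 4, against 0.43, 0.42, 0.16, 0.49 and 0.26 in control libraries 1 to 5, with 0.5 added to each count. Its mean was 0.45 ± 0.18 in high-fat milk (SD, n = 4) and 0.35 ± 0.14 in control milk (SD, n = 5). Neighbouring positions in this order thus kept their order within each dam, although the ranges of miR-192-5p and miR-194-5p overlap when dams are pooled. How well each miRNA is captured in a library was not measured here, so the ratio between different miRNAs is one of counts.

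The balance of the miRNAs with the shared seed varied far more. miR-215-5p made up 5.97%, 1.86%, 14.9% and 3.77% of the miR-192-5p and miR-215-5p counts in high-fat libraries 1 to 4, against 3.10%, 0.726%, 1.70%, 3.59% and 0.573% in control libraries 1 to 5. The mean share was 6.64% ± 5.79 in high-fat milk (SD, n = 4) and 1.94% ± 1.37 in control milk (SD, n = 5). In all 9 libraries most reads with this seed were therefore of miR-192-5p. On the log2 scale the ratio of miR-215-5p to miR-192-5p averaged -4.20 ± 1.34 in high-fat milk (SD, n = 4) and -5.95 ± 1.16 in control milk (SD, n = 5). Over all libraries this ratio had an SD of 1.48, against 0.117 to 0.723 from counting alone, while the ratio of miR-194-5p to miR-192-5p had an SD of 0.154, against 0.0494 to 0.0762 from counting.

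No diet difference was called for any of the 3. A linear model with precision weights (limma-voom) was fitted to all 312 tested names, with two-sided p-values adjusted by the Benjamini-Hochberg method over all of them. Of these names 0% (0 of 312) passed an adjusted p of 0.05, the lowest adjusted p being 0.0996, and 10.3% (32 of 312) had an unadjusted p under 0.05. The count of called names was 2 with limma-trend, 2 with library quality weights, 4 of 828 with no filter and 4 without control library 5, none of them a member. None of the 3 members was among those 32. The diets did not overlap at all for 4.81% of tested names (15 of 312) and for 0 of the 3 members. With groups of 4 and 5, the smallest two-sided p an exact permutation can give is 0.0159.

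miR-192-5p averaged 403 ± 73.3 CPM in high-fat milk (SD, n = 4) and 570 ± 189 CPM in control milk (SD, n = 5). The limma-voom log2 fold change, high-fat over control, was -0.44 ± 0.25 (SE), with a 95% interval of -0.997 to 0.12 and an adjusted p of 0.623. On the share of the library total the difference was -0.0167 percentage points, with an exact two-sided permutation p of 0.143, and it was -0.0102 without control library 5. The interval holds no change as well as a fall as large as its lower bound, so these dams leave the size of any difference wide.

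miR-194-5p averaged 558 ± 151 CPM in high-fat milk (SD, n = 4) and 719 ± 210 CPM in control milk (SD, n = 5). Its log2 fold change was -0.35 ± 0.26 (SE), with a 95% interval of -0.92 to 0.22 and a limma-voom adjusted p of 0.649. The share differed by -0.0162 percentage points, with an exact two-sided permutation p of 0.238, and it was -0.00928 without control library 5.

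miR-215-5p averaged 33.6 ± 37.0 CPM in high-fat milk (SD, n = 4) and 9.33 ± 4.49 CPM in control milk (SD, n = 5). Its log2 fold change was 1.00 ± 0.82 (SE), with a 95% interval of -0.82 to 2.82 and a limma-voom adjusted p of 0.671. The share differed by 0.00242 percentage points, with an exact two-sided permutation p of 0.111. The value rests on single libraries: the log2 fold change was 0.32 without high-fat library 3, 1.67 without high-fat library 2 and -0.029 without high-fat libraries 1 and 3. That last choice was made after the data were seen, and since these are also the libraries highest in miR-215-5p, leaving them out lowers the value by construction. Of the 312 tested names, 50.6% had a log2 fold change above 0, and 1 of the 3 members did.

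**Figure D2:**
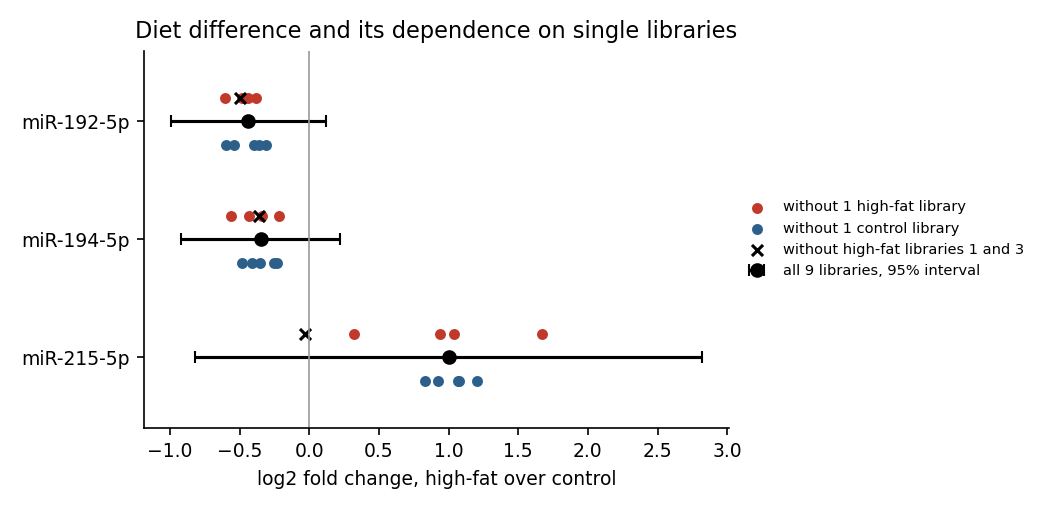
Log2 fold change, high-fat over control, of each miRNA with its 95% interval from all 9 libraries (black circle and bar), with each high-fat library (red) or control library (blue) left out in turn, and without high-fat libraries 1 and 3 (cross). Every value of miR-192-5p and miR-194-5p lies below 0 while both intervals cross it, and the values of miR-215-5p run from -0.029 to 1.67.

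All 3 miRNAs varied more between dams of the same diet than most names of a like level did. Around the diet means, the residual SD of log2 CPM was 0.41 for miR-192-5p and 0.43 for miR-194-5p, near the median of 0.43 over all 312 names. Of the names within 1 log2 unit of their level, 27 of 38 had a lower SD than miR-192-5p and 31 of 39 a lower SD than miR-194-5p. For miR-215-5p it was 1.11, and 89.4% of names had a lower one. Names of low count vary more through counting alone. Of the 92 names within 1 log2 unit of the level of miR-215-5p, 77 had a lower SD.

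miR-192-5p and miR-194-5p varied together over the dams, and no relation of miR-215-5p to either passed the test. This comparison asks whether miRNAs of neighbouring hairpins share their level from dam to dam, on log2(CPM + 1) values with scaled library sizes. Between miR-192-5p and miR-194-5p, Pearson's r was 0.942 over 9 dams (exact two-sided permutation p = 0.000254, 0.000761 after Benjamini-Hochberg adjustment over the 3 pairs) and Spearman's rho was 0.967 (exact permutation p = 0.000165, adjusted 0.000496). Without control libraries 5 and 2, the dams farthest from the median of miR-192-5p, r was 0.859 (exact permutation p = 0.0135). On deviations from the diet means r was 0.933. The joint rank order is visible in the levels themselves: control libraries 5 and 2 were the highest 2 for both miRNAs, and high-fat libraries 1 and 2 with control library 1 were the lowest 3 for both.

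Between miR-192-5p and miR-215-5p, which share a seed but lie on different chromosomes, r was -0.294 (exact permutation p = 0.455, adjusted 0.682) and rho was -0.417 (exact permutation p = 0.270, adjusted 0.270). Without control libraries 5 and 2, r was 0.384 (exact permutation p = 0.438). miR-194-5p and miR-215-5p have neighbouring hairpins on chromosome 1, but miR-194-5p is also encoded on chromosome 19. Between these miRNAs r was -0.151 (exact permutation p = 0.729, adjusted 0.729) and rho was -0.417 (exact permutation p = 0.270, adjusted 0.270). Without control library 5 and high-fat library 1, r was 0.239 (exact permutation p = 0.608). Both relations of miR-215-5p changed sign with the dams included, and the diets looked unlike each other. In high-fat milk, library 3 was the highest for all 3 miRNAs, whereas in control milk libraries 5 and 2 were the highest for miR-192-5p and miR-194-5p and the lowest for miR-215-5p. With 4 and 5 dams, no r is given within a diet, and the difference between diets was not tested. Low counts limit them, since miR-215-5p had 4 counts in control library 5 and 6 in control library 2.

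**Figure D3:**
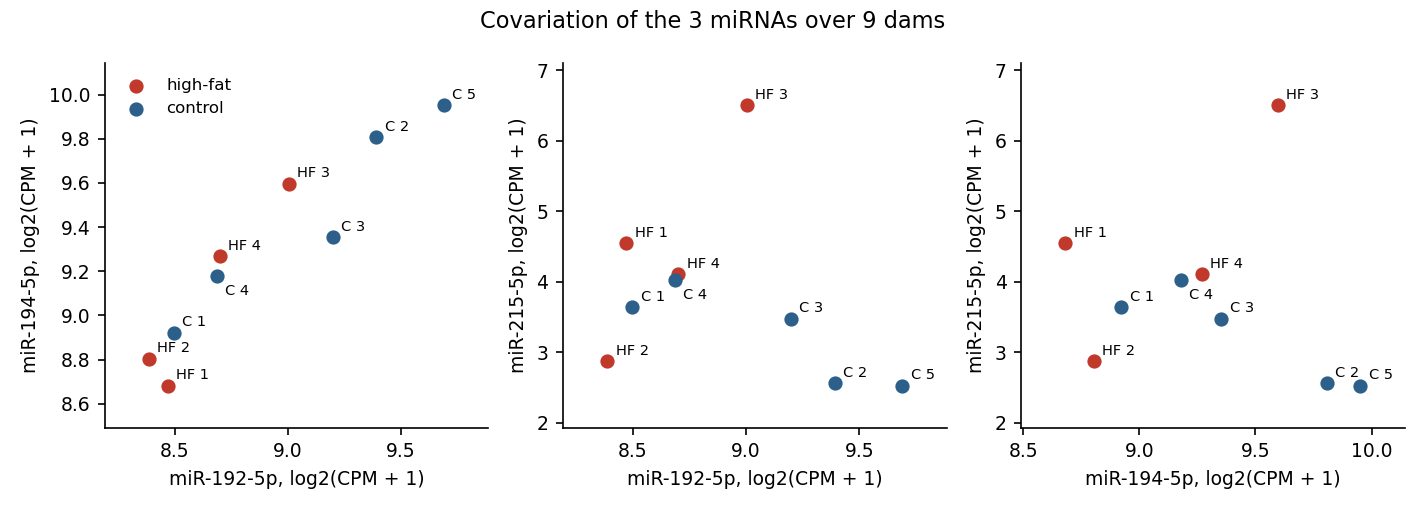
Levels of the 3 pairs of miRNAs over 9 dams as log2(CPM + 1), with high-fat dams in red and control dams in blue. miR-192-5p and miR-194-5p lie along a line (r = 0.942), while miR-215-5p shows no line with either and high-fat library 3 is at the top of both of its panels.

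Set against all 48516 pairs of tested names, whose r had a median of -0.00227 and a 5th to 95th percentile range of -0.632 to 0.639, the pair of miR-192-5p and miR-194-5p was above 99.9%. miR-194-5p was the first of the 311 correlates of miR-192-5p, and miR-192-5p was the second of those of miR-194-5p. Among the correlates of miR-215-5p, miR-192-5p was number 237 and miR-194-5p number 200. These pairs share the same 9 libraries and their scaling, so the ranks are a description.

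The other clustered pairs spread widely. Of 10 other clustered pairs, 1 had a higher r than miR-192-5p with miR-194-5p, namely miR-221-3p with miR-222-3p at 0.966. miR-182-5p with miR-183-5p had an r of 0.692, miR-17-5p with miR-20a-5p 0.655 and miR-143-3p with miR-145a-5p 0.654, so that 4 of the 10 were above the 95th percentile of all pairs. At the other end, miR-200a-3p with miR-200b-3p had an r of -0.421 and miR-200c-3p with miR-141-3p one of -0.366, and these 2 pairs were below the -0.151 of miR-194-5p with miR-215-5p. A pair with let-7a-5p was left out of the 10 because let-7a has several loci. The same limit holds for miR-194-5p, whose hairpins lie on 2 chromosomes, so its r does not describe the chromosome 1 hairpins alone. The median of the 10 was 0.280.

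**Figure D4:**
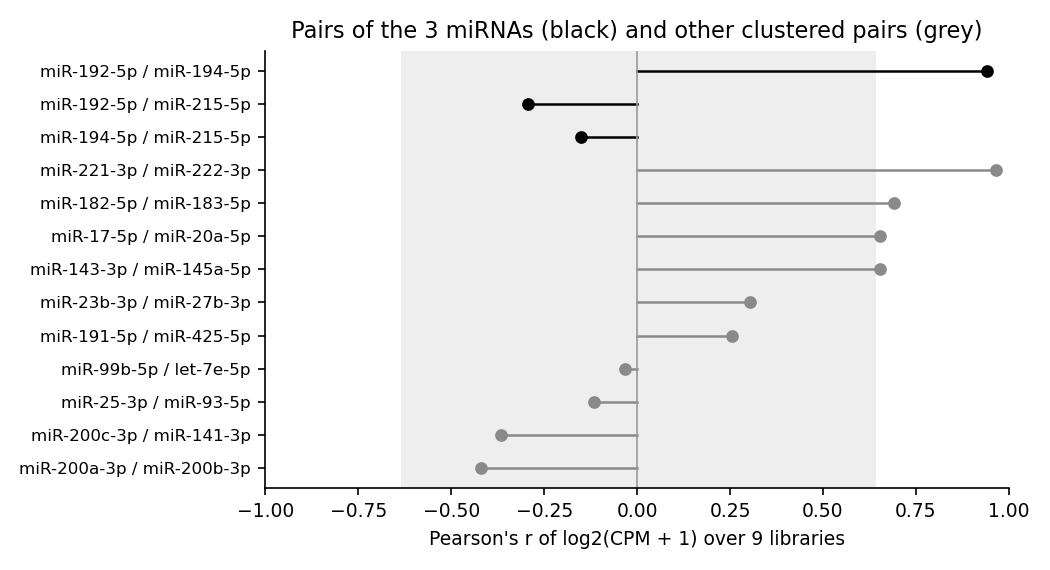
Pearson's r over 9 libraries for the 3 pairs of miR-192-5p, miR-194-5p and miR-215-5p (black) and for 10 other pairs from neighbouring hairpins (grey). The band is the 5th to 95th percentile of all tested pairs, -0.632 to 0.639; miR-192-5p with miR-194-5p lies beyond it and the pairs of miR-215-5p lie inside it.

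The tested names whose levels were most like each member were picked as the 5 with the highest r over the 9 libraries. For miR-192-5p and for miR-194-5p, miR-324-5p led, with r of 0.920 and 0.968, followed by miR-3473b, with 0.908 and 0.879, and miR-6538, with 0.838 and 0.836. miR-6236 was also in both lists of 5, with r of 0.8291 and 0.801, and miR-5126 (0.834 to miR-192-5p) and miR-151-3p (0.817 to miR-194-5p) completed them. Several of these rested on the shallow control library 5: without it, the r to miR-192-5p was 0.690 for miR-6538, 0.685 for miR-5126 and 0.691 for miR-6236, but 0.896 for miR-324-5p. For miR-215-5p the list was another one, led by miR-326-3p at 0.941, miR-150-5p, a lymphocyte miRNA, at 0.848 and miR-802-5p, a miRNA of liver and pancreas, at 0.832, followed by miR-340-3p at 0.832 and miR-126a-3p, an endothelial miRNA, at 0.817. Without high-fat library 3 these were 0.810, 0.465, 0.245, 0.518 and 0.856.

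The mir-194-2 row of miR-194-5p was the higher one in every library, by 39 to 97 counts. It held 10872 counts over the 9 libraries and the mir-194-1 row 10320, a gap of 552 counts or 5.08% of the higher row, and between 3.73% and 8.16% in single libraries. Since the 22 mature bases are the same in both hairpins, reads of these bases alone cannot be given to a locus. The counting rule for such reads is unknown here. Separate names such as miR-199a-3p and miR-199b-3p had the same limma-voom log2 fold change and SE, 0.397 and 0.914. Reads that fit several hairpins thus appear to be credited to each alike, in full or in equal parts, and which of these was not tested. If reads were divided between the rows, the level of miR-194-5p and its ratio to miR-192-5p would be higher than given above. The fold change of miR-194-5p was -0.33 on the mir-194-1 row, a choice added after the data were seen.

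The 3p arms, which name their hairpin, were rare, and none passed the filter. For miR-194, 28 of 28 counts of a 3p arm were miR-194-2-3p, from chromosome 19, so that the 95% Wilson interval of this share starts at 87.9%. miR-194-2-3p had 7, 0, 1 and 4 counts in high-fat libraries 1 to 4, against 0, 6, 6, 2 and 2 in control libraries 1 to 5. miR-194-1-3p had 0 counts in all 9 libraries, which allows up to 3 counts over them all. How much of miR-194-5p came from chromosome 1 was not measured by this, since the arms of a hairpin need not be kept in a fixed ratio.

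The passenger strand of mir-192 was seen in 8 of 9 libraries. miR-192-3p had 4, 0, 1 and 6 counts in high-fat libraries 1 to 4, against 5, 5, 8, 3 and 3 in control libraries 1 to 5. Its share of both arms was 0.278% in high-fat milk (11 of 3951 counts, 95% Wilson interval 0.156% to 0.498%) and 0.542% in control milk (24 of 4425, 0.365% to 0.806%). These intervals overlap and the pooled counts of dams are not replicates. High-fat library 2, the deepest, had 0 counts of both miR-192-3p and miR-194-2-3p. miR-215-3p had 6 counts in all beside 371 of miR-215-5p, a share of 1.59% (95% Wilson interval 0.731% to 3.43%). Over all libraries the 3p share was 0.418% for mir-192 (0.301% to 0.581%) and 0.257% for mir-194-2 (0.178% to 0.371%). These intervals cover counting error over pooled dams, and the shares of the hairpins were not compared by a test.

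Marker lists of other cell types were read in every library beside the members. In bulk samples, fewer cells of a type and less RNA per cell cannot be told apart. miRNAs of mammary secretory epithelium (8 of 8 detected) summed to 488089 to 518490 CPM in high-fat milk and 461066 to 517870 CPM in control milk, the highest sum of the 9 cell type lists in every library. Of its 8 tested members 4 had a log2 fold change above 0, and 0 were called. Leukocyte miRNAs (5 of 5 detected) summed to 11418, 77.7, 2874 and 251 CPM in high-fat libraries 1 to 4, against 383, 564, 356, 373 and 762 CPM in control libraries 1 to 5. All 5 were tested, 5 had a log2 fold change above 0, and 0 were called. For this and the other lists, the share over all 312 tested names was 50.6% above 0 and 0% called. High-fat libraries 2 and 4 had lower leukocyte sums than every control library. High-fat libraries 1 and 3, which had the highest leukocyte sums, were also the highest in miR-215-5p, though in the opposite order. The order of the sum was that of miR-223-3p, miR-142a-3p and miR-142a-5p. miR-150-5p (439 and 15.8 CPM) and miR-155-5p (57.4 and 48.8 CPM) were higher in high-fat library 3 than in library 1, as miR-215-5p was. Among the control libraries the order of the sum did not match: libraries 5 and 2 had the highest leukocyte sums and the lowest levels of miR-215-5p. Single members differed there too, with miR-155-5p highest in control library 1 (24.3 CPM) and miR-150-5p lowest in control library 2 (0.803 CPM). miR-223-3p, of neutrophils, had the most counts of the list over all libraries, with 7847, 27.2, 760 and 80.3 CPM in high-fat libraries 1 to 4, against 175, 309, 200, 190 and 481 CPM in control libraries. miR-142a-5p, of blood cells in general, had 2943, 40.8, 1414 and 144 CPM in high-fat libraries 1 to 4, against 155, 191, 130, 141 and 241 CPM in control libraries, and was above miR-223-3p in high-fat libraries 2, 3 and 4. The part of these cells in the level of miR-215-5p was not tested.

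High-fat library 3 was the highest in the erythrocyte, striated muscle, hepatocyte, and kidney and choroid lists as well, the last at only 3.96 CPM. The stroma sum was highest in high-fat library 4. Its member miR-199a-3p, however, had 284 CPM in high-fat library 3, against 10.0 to 29.8 CPM in every other library. The other stroma members were not highest in high-fat library 3. miR-145a-5p was there at its lowest of all libraries, with 273 CPM. miR-143-3p had 11982 CPM there and miR-214-3p 0.989 CPM, against 25225 and 1.57 CPM in high-fat library 4. Erythrocyte miRNAs (5 of 5 detected) summed to 27.0, 93.4, 796 and 120 CPM in high-fat libraries 1 to 4, against 33.4 to 206 CPM in control libraries. Striated muscle miRNAs (4 of 7 detected, with miR-206-3p, miR-208a-3p and miR-208b-3p at 0) summed to 3.42, 2.31, 97.9 and 5.25 CPM, against 4.36 to 13.7 CPM in control libraries. None of them passed the filter. The sum in high-fat library 3 came from miR-133a-3p (72.2 CPM), miR-1a-3p (18.8 CPM) and miR-133b-3p (6.92 CPM). miR-499-5p went the other way, at 0 CPM in that library. It averaged 0.364 ± 0.486 CPM in high-fat milk (SD, n = 4) and 4.02 ± 2.52 CPM in control milk (SD, n = 5). Hepatocyte miRNAs (4 of 4 detected) summed to 51.8, 30.8, 688 and 63.5 CPM, against 37.1 to 110 CPM in control libraries. The hepatocyte sum of 688 CPM in high-fat library 3 was almost all miR-802-5p, at 673 CPM there and 8.73 to 18.8 CPM in the 8 other libraries. miR-122-5p, the defining miRNA of hepatocytes, was at 13.8 CPM in high-fat library 3, within its range of 12.6 to 44.6 CPM in high-fat milk and below its range of 20.6 to 92.6 CPM in control milk. miR-192-5p and miR-194-5p, which are abundant in liver, were at 501 and 755 CPM in that library. Both were the highest of the high-fat libraries, the others lying at 324 to 401 CPM and 434 to 596 CPM, and both were inside the range of the control libraries.

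**Figure D5:**
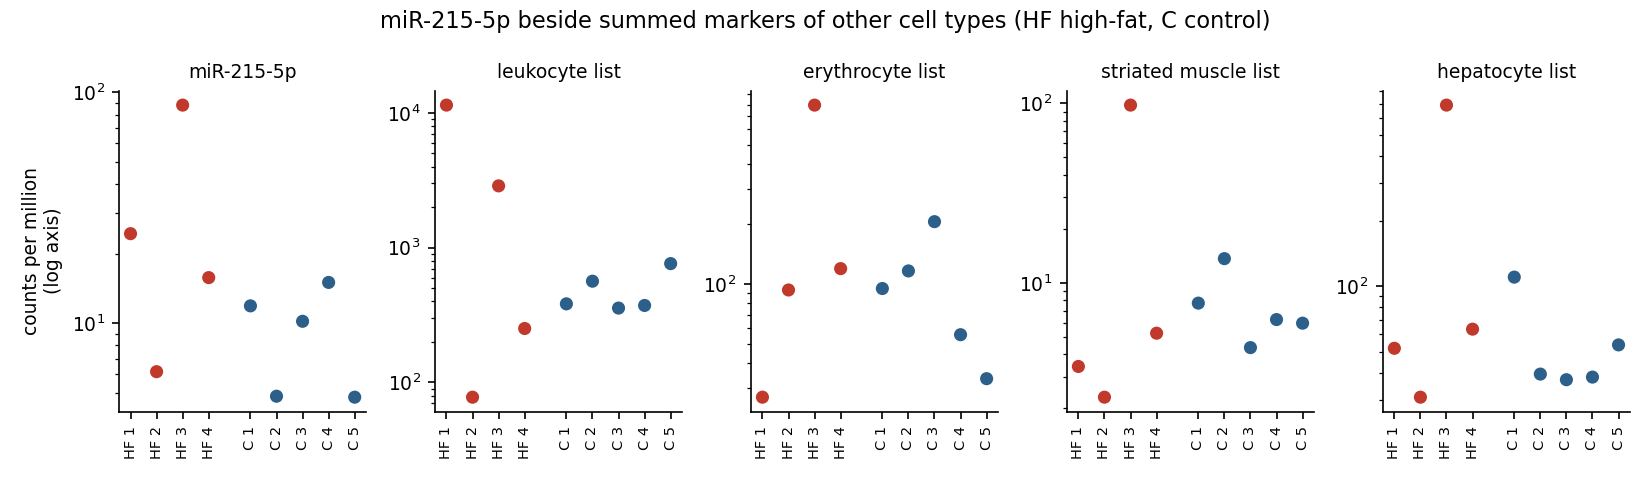
miR-215-5p and the summed levels of 4 marker lists in each library, on the counts-per-million scale with log axes, with high-fat dams (red) left of control dams (blue). High-fat library 3 is the highest library for miR-215-5p and for the erythrocyte, striated muscle and hepatocyte lists, and high-fat library 1 is the highest for the leukocyte list.

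The remaining lists were read in the same way. miRNAs of gut and pancreas endocrine epithelium (3 of 3 detected) summed to 4465 to 7439 CPM in high-fat milk and 4065 to 5125 CPM in control milk, with a limma-voom log2 fold change of 0.39 ± 0.19 (SE) for miR-375-3p, an islet and gut miRNA, and of 0.02 ± 0.16 for miR-7a-5p. Kidney and choroid miRNAs (1 of 2 detected, with miR-211-5p at 0) summed to 0 to 3.96 CPM in high-fat milk and 0 to 2.91 CPM in control milk. Stroma miRNAs (4 of 4 detected, 2 of 3 tested above 0, 0 called) summed to 11658 to 25740 CPM in high-fat milk and 10358 to 19151 CPM in control milk, and endothelial miRNAs (2 of 2 detected, 2 of 2 tested above 0, 0 called) to 10.5 to 29.1 CPM in high-fat milk and 6.43 to 22.0 CPM in control milk. Of the 8 miRNAs of a list known to respond to p53, 7 were tested, 0 were called and 4 had a log2 fold change above 0, beside 50.6% of all tested names. Their median log2 fold change was 0.00. The 2 most abundant were miR-143-3p, at 0.00 ± 0.29 (SE), and miR-16-5p, at 0.06 ± 0.22.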

How the data were processed

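Small RNA libraries of the milk fat of 4 high-fat and 5 control dams were prepared with the NEXTflex kit and sequenced on a HiSeq2500, per the labels' protocols. The authors deposited read counts per pair of hairpin and mature miRNA, and 833 of the cells have commas between their digits, which were removed. Because of these commas the columns were recorded under another unit and count models were not used. Per the submitters' processing notes, cutadapt 1.9.1 and build GRCm38 were used. The aligner, the rule of counting and the release of miRBase were not given in the sources used here, and counts are treated as reads. Where a mature name has several rows (81 names), the highest count in each library was kept. Column heads match the sample labels.

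Names were tested if they reached 5.25 CPM (10 counts in the median library) in at least 4 libraries and 15 counts in all; the names left out held 0.0470% of the counts. Library sizes were scaled by trimmed mean of M values factors (0.967 to 1.09), and limma 3.58.1 (voom) in R 4.3.3 fitted diet as the only term. The script was tested on simulated data. Permutation tests, correlations and intervals used scipy 1.17.1. No 2 libraries of a diet were repeats: their chi-square per degree of freedom was at least 54.6. Sequences and hairpin positions are from RefSeq (GRCm38.p6), with 7 of 7 mature products of the 4 hairpins matched, and genes around them from the GENCODE annotation of GRCm38. The miRNAs named are the 3 members, the other products of their hairpins, the 5 names most like each member and 10 pairs of neighbouring hairpins. The rule also allows the 2 most abundant tested names of each marker list, not all of which are named. miR-802-5p, miR-122-5p and the names at 0 are given for the sums they enter. Outside this rule, miR-142a-3p, miR-155-5p, miR-199a-3p, miR-214-3p and the striated muscle members are named beside their list sums, and miR-199b-3p for its shared values. Members and lists were chosen with earlier results of these data known. Alternatives were another filter, scaling and weights, other pseudocounts, a replicate block and leaving out libraries.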

Additional observations from a re-analysis of the deposited data

Results flagged for a closer look

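No level, share or ratio of miR-192-5p, miR-194-5p or miR-215-5p had a library that stood off from its diet by Dixon's 95% criterion, the 88.0 CPM of miR-215-5p in high-fat library 3 included. Among the markers read beside them, 9 of all 52 groups of values searched had such a library. For independent, normal values about 1 in 20, or 2.6, would be due. The groups are not independent, since miR-802-5p and miR-122-5p also enter the hepatocyte sum, so the excess was not tested.

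In high-fat library 3, far above the other high-fat libraries, the hepatocyte list summed to 688 CPM (others 30.8 to 63.5), the erythrocyte list to 796 CPM (others 27.0 to 120) and the striated muscle list to 97.9 CPM (others 2.31 to 5.25). In the same library miR-802-5p had 673 CPM (others 16.7 to 18.8) and miR-150-5p 439 CPM (others 0.257 to 15.8). In high-fat library 4 the stroma list summed to 25740 CPM, far above the other high-fat libraries (11658 to 12541). In control library 1 the hepatocyte list summed to 110 CPM (others 37.1 to 53.7) and miR-122-5p had 92.6 CPM (others 20.6 to 38.2), far above the other control libraries. In control library 5 the mammary secretory list summed to 461066 CPM, far below the others (508025 to 517870). Not all of its members were low there. miR-148a-3p was at its lowest of all libraries (102929 CPM), while miR-200b-3p (38502 CPM) and miR-200c-3p (36223 CPM) were at their highest.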

How the results depend on the processing

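Of 210 values recomputed under other settings, 198 kept their direction and their side of the threshold or stayed within the spread. The count of called names, 0 of 312, was 4 with no filter, 2 with library quality weights, 2 with limma-trend, 3 with the replicate block and 0 to 4 with 1 library left out, the 4 being without control library 5; no member was called under any of these. The log2 fold change with 1 library left out was -0.61 to -0.31 for miR-192-5p, -0.56 to -0.22 for miR-194-5p and 0.32 to 1.67 for miR-215-5p, and it was reversed to -0.029 for miR-215-5p without high-fat libraries 1 and 3 (added after the data were seen). The share difference with 1 library left out was -0.0217 to -0.0102 percentage points for miR-192-5p and -0.0228 to -0.00928 for miR-194-5p, both smallest without control library 5. That of miR-215-5p was 0.000610 to 0.00334. The highest, without high-fat library 2, had an exact permutation p of 0.0357, the smallest possible with groups of 3 and 5. High-fat library 2 was the only high-fat library not above every control, so leaving it out gives this p by construction. The r of miR-192-5p with miR-194-5p was 0.917 to 0.960 with 1 library left out and 0.859 to 0.965 under the other settings. The r of miR-192-5p with miR-215-5p was 0.384 without the 2 farthest dams and -0.650 to -0.0542 with 1 library left out. The r of miR-194-5p with miR-215-5p was 0.101 on deviations from the diet means, 0.239 without the 2 farthest dams and -0.667 to 0.0924 with 1 library left out, above 0 without control library 2 (0.0204) or control library 5 (0.0924). The cause of these changes was not tested.

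Same-numbered libraries showed no strong joint deviation (r of their deviations 0.0534, -0.0886, 0.196 and -0.129). Libraries of unlike number were not compared, and a weak pairing by number was not tested. With the replicate block, in which control library 5 has no partner, the log2 fold changes were -0.31, -0.23 and 1.55 for miR-192-5p, miR-194-5p and miR-215-5p. No 3p arm passed the filter. With no filter, the limma-voom log2 fold changes were -2.0002 for miR-192-3p (adjusted p 0.250), -1.01 for miR-194-2-3p (0.743) and 0.126 for miR-215-3p (0.949). They rest on 35, 28 and 6 counts in all. That fit as a whole was shifted down, with a median log2 fold change of -0.214 over its 828 names, against 0.00403 in the main fit. Of its 147 names with an unadjusted limma-voom p under 0.05, 127 were lower in high-fat milk. The low counts of miR-215-5p and of the 3p arms limit what depth can show.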
